A study of Mus musculus with 2 samples.

Results

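The genes described here are 41 that build, store, carry and release fat, together with the transcription factors that switch on the fat cell programme. They were measured in mouse intestinal subepithelial myofibroblasts, which are contractile, matrix-making stromal cells that line the base of the gut epithelium. The list was drawn up by function, and a gene was used where the array held a probeset paired with that gene and no other. This was so for 38 of the 41. Scd2, Acsl1 and Acsl3 were not analysed here. Where a gene had several probesets, the brightest by the mean of the arrays was used. The whole array named 22180 genes in this way.

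The study holds 2 arrays of RNA from small intestinal myofibroblasts of wild-type BALB/c mice. The non-stimulated array carries RNA of cells cultured without homogenate. The stimulated array carries RNA of cells that were given an eosinophil homogenate at 5 mg/ml for 1 day, the eosinophils being granulocytes from the intestine. In each condition the RNA of 3 cultures was pooled, so each condition is 1 array, with no replicate, no error and no test, and each difference describes these 2 pools. A source field of the labels names eosinophils for both samples, whereas the protocols name myofibroblasts. The homogenate was a crude mixture, so a difference cannot be assigned to any component of it.

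Fat cells are made from fibroblast-like precursors through a relay of transcription factors. C/EBP beta and C/EBP delta (Cebpb, Cebpd) come on early, and C/EBP alpha and PPAR gamma (Cebpa, Pparg) follow and turn on the genes of the mature fat cell. Fatty acids are made from acetyl-CoA or taken up, activated to acyl-CoA, joined to glycerol as triglyceride and kept in lipid droplets coated by perilipins, from which lipases release them. C/EBP beta and C/EBP delta also take part in the response of many cell types to inflammatory cytokines.

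Values are log2 values, in which a difference of 1 is 2-fold. Differences are stimulated minus non-stimulated throughout. Background was set by receptor genes of the nose (olfactory and vomeronasal), which stromal cells should lack: the 95th percentile of their probesets was 5.58 without homogenate and 5.57 with it. A gene was taken as measured when its mean over both arrays exceeded the mean of these levels, 5.57, which 13622 genes did. Of the 38 lipid genes, 32 passed, and these 32 were above background on each of the arrays. Another 5 were under it on both (Pparg, Cd36, Adipoq, Cidea and Cidec), and Fabp4 was above it on the stimulated array only. A low mean on a probeset can reflect the probes as well as the transcript, so levels of different genes are not ranked.

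The genes of fatty acid synthesis and of the common droplet coat were measured in these cells, while several genes that define a fat cell were under background. Vim (vimentin, an intermediate filament of stromal cells) read 13.10 and 13.16, and Acta2 (smooth muscle actin) read 13.07 and 12.78, where the value without homogenate comes first here and in all pairs that follow. All 12 fibroblast and myofibroblast markers were measured, with a median difference of -0.03. Some of them differed by as much as the lipid genes described below: Des (desmin) was 1.54-fold lower, Tagln (transgelin) 1.33-fold lower, Acta2 1.22-fold lower and Pdgfra (a growth factor receptor of stromal cells) 1.47-fold higher with homogenate. Their part in the lipid gene differences was not tested. Of 10 adipocyte markers with a probeset, 5 were measured and 5 were under background on both arrays. The latter included Adipoq (adiponectin, the hormone secreted by fat cells) at 4.71 and 4.82 and Lep (leptin) at 4.78 and 4.90. The mean log2 level of the 10 markers was 5.42 and 5.45, and Gpd1, at 6.60 and 6.53, and Lipe were among those measured. Both genes lay under the 99th percentile of the receptor probesets, which was 6.80 and 6.65.

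A few genes differed by 1.2-fold or more between the arrays: regulators, secreted and lipolytic genes, an acyl-CoA synthetase and a droplet coat gene. None of the measured genes of fatty acid synthesis, elongation, desaturation or triglyceride assembly did. No measured lipid gene reached 2-fold (1 on the log2 scale) in either direction, where 0.154% of all measured genes were higher by that much and 0.0294% lower. Cebpd alone was at least 1.5-fold higher, and none was as much lower, where 0.661% and 0.521% of all measured genes were. At 1.2-fold, 4 of the 32 were higher (Cebpd, Angptl4, Cebpb and Acsl4), which is 12.5% against 5.49% of all measured genes. Another 4 were lower (Mgll, Lpl, Plin4 and G0s2), again 12.5%, against 6.26%. The median difference was 0.05 for the 32 and 0.07 for the 38 with a probeset, beside 0.00 for all measured genes, and 23 of the 32 were higher and 8 lower, beside 50.3% and 48.1% of all measured genes. In RNA from whole cultures, fewer cells of a kind and less RNA per cell cannot be told apart.

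**Figure D1:**
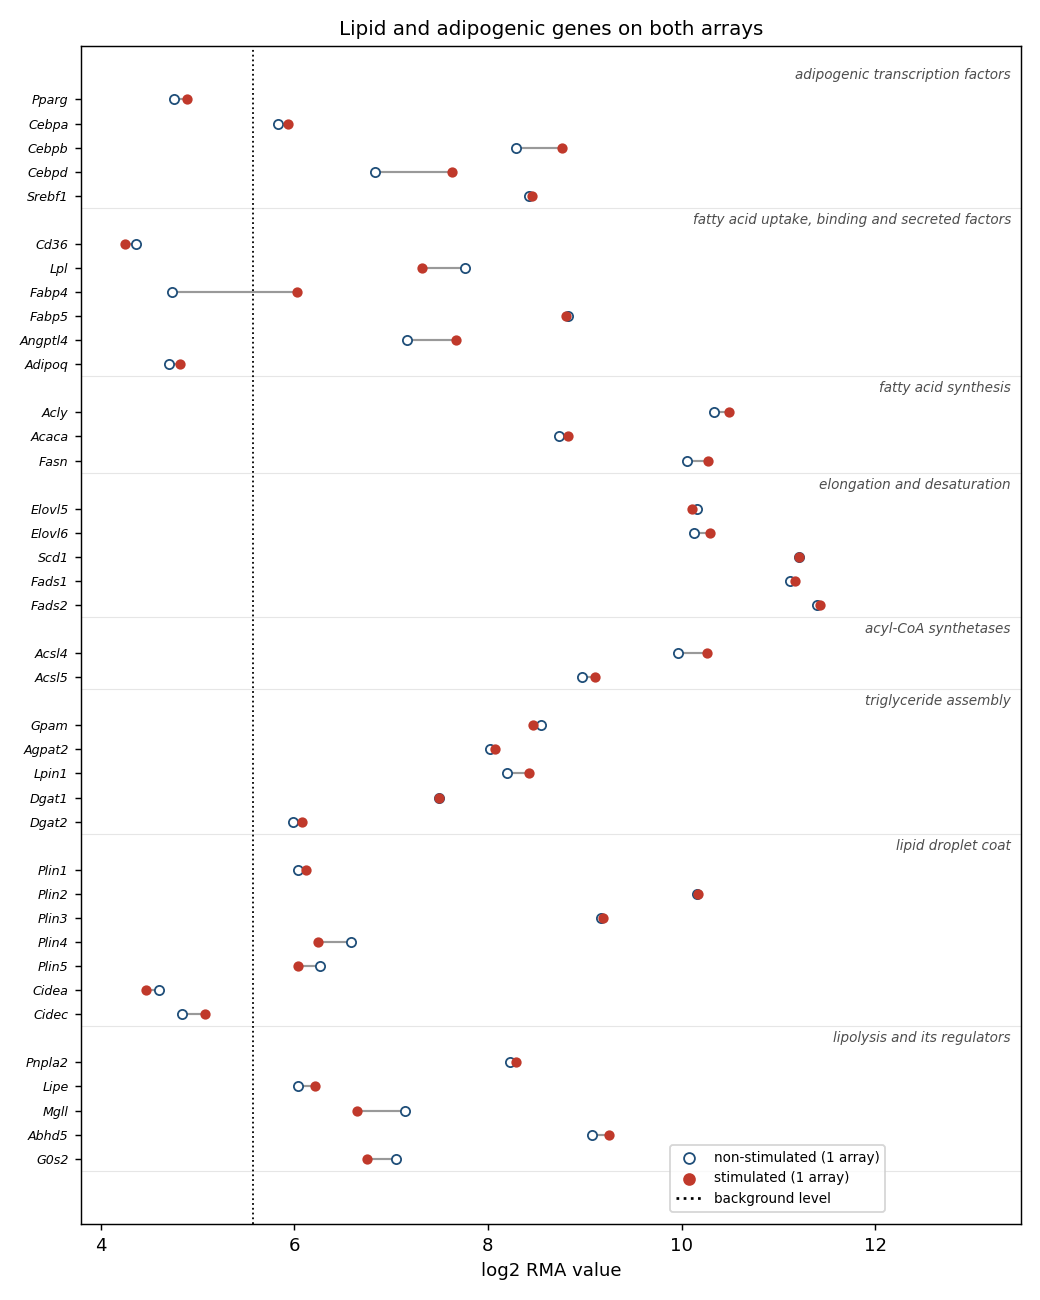
Log2 value of each of the 38 lipid genes with a probeset of its own on the non-stimulated array (open circles) and the stimulated array (filled circles), 1 array each, grouped by role; the dotted line is the mean background level of 5.57. Fabp4 is the only gene whose points lie on either side of the line, and the widest gaps above it are those of Cebpd, Angptl4, Mgll, Cebpb and Lpl.

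Dim probesets vary more than bright ones, which sets a scale for these differences in the absence of replicates. The measured genes were put in 4 equal sets by their mean over both arrays. Leaving off the outer 2.5% on each side, differences ran from -0.45 to 0.42 among the dimmest genes, -0.38 to 0.37 in the second set, -0.29 to 0.32 in the third and -0.25 to 0.29 among the brightest. Cebpd, Angptl4, Cebpb and Acsl4 lay above the range of their set, as 2.53% of all measured genes do by construction, and Mgll and Lpl lay below it, as another 2.53% do. With the 2 probesets of Lpl averaged its difference was -0.33, still below the range of the third set, where Lpl lay. The averaged mean was dimmer, however, which put Lpl in a dimmer set with a wider range, and it lay inside that range. Plin4 and G0s2, as read, lay inside the range of their set. This range is a spread between genes on these 2 arrays and not an error of measurement, and it was chosen after the values were seen.

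**Figure D2:**
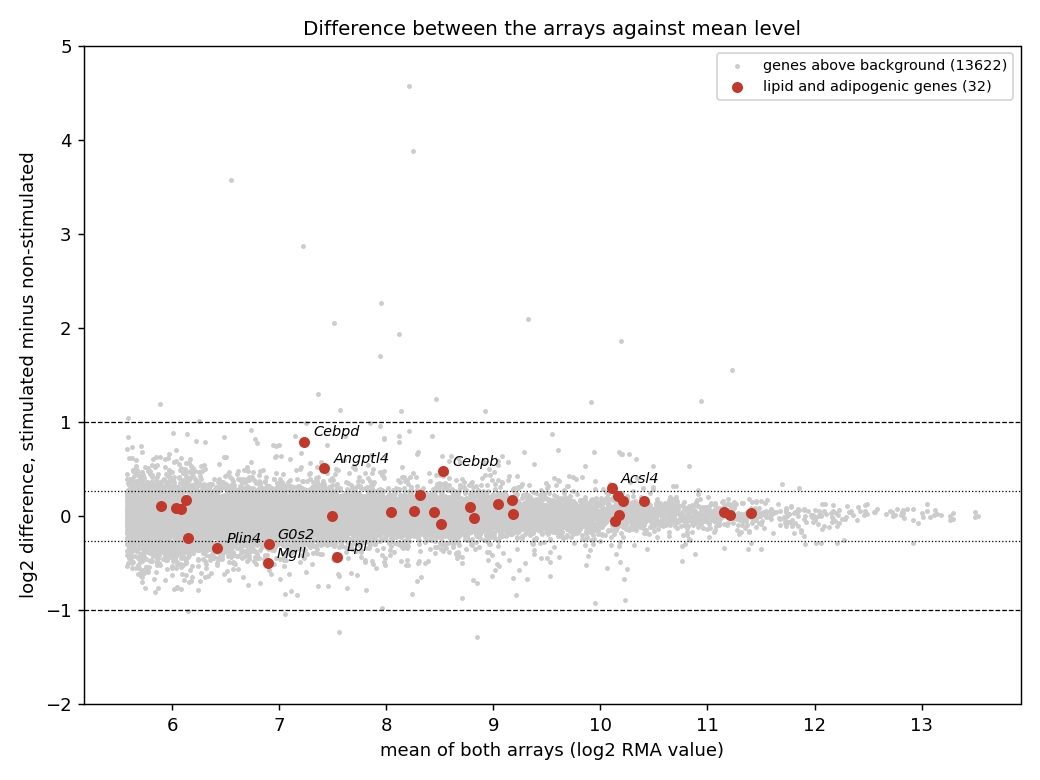
Log2 difference between the arrays (vertical axis, stimulated minus non-stimulated) against the mean of both (horizontal axis, log2 value) for the 13622 measured genes in grey and the 32 measured lipid genes in red; dotted lines mark 1.2-fold and dashed lines 2-fold. The 8 named lipid genes lie beyond the dotted lines, and no lipid gene lies beyond a dashed one.

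Among the transcription factors, the early C/EBP genes were higher with homogenate and the late regulators were close to level or under background. Cebpd read 6.83 without homogenate and 7.63 with it, a difference of 0.79 or 1.73-fold. This was the largest difference among the 32 genes in either direction, and it ranked 40 from the top among the 13622 measured genes. Cebpb read 8.29 and 8.77, a difference of 0.48 or 1.39-fold. Cebpa, which maintains the fat cell state, read 5.83 and 5.94, a difference of 0.11 just over background. Pparg, the receptor that fat cell formation depends on, was under background at 4.76 and 4.89, so no difference could be measured. Srebf1, which drives the genes of fatty acid synthesis and is largely controlled by cleavage of its protein, read 8.42 and 8.46 and differed by 0.04.

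Promoter windows of 250 bases before to 50 bases after the annotated start were taken from RefSeq (GRCm38.p6), which held 37 windows for 28 of the 38 genes. Cebpd, Angptl4, Fabp4 and Lpl were not among them. Those of Cebpb and Mgll are printed because these had the largest positive and the largest negative difference among genes with a window, and those of Acly and Fasn because they stand for the synthesis genes. Of the windows of Mgll, only the one further upstream matched any of the motifs searched, and that one is shown. Capitals mark TATAAA in Cebpb, CACGTG in Mgll, and CCAAT or its reverse complement in Acly and Fasn. Each is written 5′ to 3′ along the strand of the gene: Cebpb at chr2:167688665-167688964 (+), Mgll at chr6:88724162-88724461 (+), Acly at chr11:100527951-100528250 (-) and Fasn at chr11:120824498-120824797 (-).
Cebpb: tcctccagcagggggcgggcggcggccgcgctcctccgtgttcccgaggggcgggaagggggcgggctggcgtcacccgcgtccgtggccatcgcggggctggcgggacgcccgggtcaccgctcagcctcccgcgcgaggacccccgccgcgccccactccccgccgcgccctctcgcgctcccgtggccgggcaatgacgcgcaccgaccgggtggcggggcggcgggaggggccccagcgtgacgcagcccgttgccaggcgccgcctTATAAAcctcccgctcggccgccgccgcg
Mgll: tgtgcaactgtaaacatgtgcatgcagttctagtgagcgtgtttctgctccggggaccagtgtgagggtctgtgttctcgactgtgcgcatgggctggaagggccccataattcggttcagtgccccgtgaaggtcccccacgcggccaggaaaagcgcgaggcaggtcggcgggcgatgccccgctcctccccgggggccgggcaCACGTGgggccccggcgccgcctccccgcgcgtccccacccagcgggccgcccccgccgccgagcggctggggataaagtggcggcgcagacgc
Acly: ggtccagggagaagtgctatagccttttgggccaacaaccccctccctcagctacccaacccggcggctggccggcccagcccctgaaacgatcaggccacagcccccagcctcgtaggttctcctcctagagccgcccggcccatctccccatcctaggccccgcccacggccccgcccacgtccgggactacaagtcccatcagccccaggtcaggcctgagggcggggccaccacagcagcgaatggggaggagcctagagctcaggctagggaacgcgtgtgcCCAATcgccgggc
Fasn: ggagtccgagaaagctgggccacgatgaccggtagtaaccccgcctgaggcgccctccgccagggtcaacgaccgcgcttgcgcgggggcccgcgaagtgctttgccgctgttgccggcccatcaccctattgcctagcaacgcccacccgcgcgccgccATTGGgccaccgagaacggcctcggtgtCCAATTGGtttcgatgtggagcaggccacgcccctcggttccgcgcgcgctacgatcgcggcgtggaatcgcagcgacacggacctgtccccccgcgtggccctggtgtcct

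Of 7 motifs searched on both strands, 4 matched at least 1 window of these genes. CCAAT was in 15 of the 37 windows (40.5%), against 37.4% of all 32851 windows, CACGTG in 4 (10.8% against 7.15%), TATAAA in 3 (8.11% against 13.6%) and TGACGTCA in 1 (2.70% against 1.79%). The palindromic C/EBP site TTGCGCAA, the sterol regulatory element TCACNCCAC and the PPAR response element (AGGTCA repeated after a spacer of 1 base) matched none, and 0.183%, 1.24% and 0.0396% of all windows. In Fasn, CCAAT at 62 bases before the start overlaps its reverse complement at 59 bases. In Mgll the match begins 44 bases before the start, and in Acly and Cebpb it begins at bases 38 and 22 after it. These are matches of letters and not measured sites.

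Genes of uptake, binding and secretion differed in both directions. Lpl (lipoprotein lipase, the secreted enzyme that frees fatty acids from circulating lipoproteins) read 7.76 without and 7.32 with homogenate, a difference of -0.43 or 1.35-fold lower. Angptl4, a secreted inhibitor of that lipase, read 7.16 and 7.67, a difference of 0.51 or 1.42-fold higher. The enzyme and its inhibitor differed in opposite directions between the arrays. A dimmer probeset of Lpl, at 5.50 and 5.28, was also lower with homogenate, by 0.22, and lay under background on both arrays.

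The fatty acid binding proteins, which carry fatty acids inside the cell, differed from each other. Fabp4, the form of fat cells, macrophages and some endothelial cells, read 4.74 without homogenate, under background, and 6.03 with it. Its difference of 1.29 includes a value below background, and against the background level used here it was at least 1.36-fold higher. That bound depends on the level chosen. Both values of Fabp4 lay under the 99th percentile of the receptor probesets, 6.8 and 6.65, and at that level no difference could be measured. Fabp5, the form found in many other cells, read 8.83 and 8.81, and its 4 probesets differed by between -0.02 and 0.05. Cd36, a fatty acid transporter of the cell surface that is also abundant in macrophages and capillary endothelium, did not reach background with or without homogenate, at 4.37 and 4.25.

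Markers of macrophages and endothelial cells, which can express Fabp4, were in part under background, as were those of eosinophils and intestinal epithelium. Of 12 macrophage markers, 3 were measured and 9 were not, Cx3cr1 (6.57 and 6.81) and Cd68 (6.31 and 6.52) among the former, and the mean log2 level of the list was 5.22 without and 5.25 with homogenate. Of the 12, 8 were under background on both arrays, Adgre1 and Ptprc among them, while Lyz2 was above it on the stimulated array only, at 5.66. Of 10 endothelial markers, 5 were measured, among them Egfl7 at 6.24 and 6.33 and Gpihbp1 at 6.08 and 6.13, with a list mean of 5.49 and 5.55. The others measured were Pecam1 (5.87 and 5.83), Kdr (5.80 and 5.73) and Vwf (5.69 and 5.72), and Cdh5 was among the 5 under background on both. Of 10 eosinophil markers, Alox15 (5.68 and 5.87) and Cebpe (5.91 and 5.46) were measured, Cebpe being under background with homogenate. The list mean was 4.80 and 4.71. Of 14 intestinal epithelial markers 6 were measured: Krt8 (6.45 and 6.23), a keratin, the mucin gene Muc2 (5.99 and 6.12), Cdh1, Krt18, Apoa1 and Apoa4. The mean of that list was 5.26 and 5.21. Fabp1 and Fabp2, the fatty acid carriers of enterocytes, were among the 7 under background on both arrays. Apart from Cx3cr1 with homogenate, the values named here lay under the 99th percentile of the receptor probesets, 6.80 and 6.65. The part of any of these cell types in the Fabp4 value was not tested.

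The fatty acid synthesis genes differed by 0.10 to 0.21. Fasn (fatty acid synthase) read 10.06 and 10.27, a difference of 0.21. Acly (which makes cytosolic acetyl-CoA from citrate) read 10.33 and 10.49, a difference of 0.16. Acaca (acetyl-CoA carboxylase, which makes malonyl-CoA) read 8.73 and 8.83, a difference of 0.10. None of the 3 reached 1.2-fold, and each lay within the range of its brightness set.

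No elongation or desaturation gene reached 1.2-fold. Elovl6, which lengthens the product of fatty acid synthase, read 10.13 and 10.29, a difference of 0.16. The stearoyl-CoA desaturase gene Scd1 read 11.21 on both arrays. Fads1 and Fads2, the desaturases of polyunsaturated fatty acids, differed by 0.04 and 0.03, and the polyunsaturated elongase gene Elovl5 by -0.05. The 5 measured genes of this step had a median of 0.03.

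Of the acyl-CoA synthetases, which activate fatty acids for further use, 1 of the 2 measured was past 1.2-fold. Acsl4, which prefers arachidonic acid and other polyunsaturated fatty acids, read 9.96 and 10.26, a difference of 0.30 or 1.23-fold. Acsl5 read 8.97 and 9.11, a difference of 0.13, short of 1.2-fold and inside the range of its brightness set.

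The genes that assemble triglyceride spread little. Lpin1 (lipin, the phosphatidate phosphatase that makes diacylglycerol) read 8.20 and 8.42, a difference of 0.22 or 1.17-fold, just short of the 1.2-fold mark. The acyltransferase genes Agpat2 and Gpam, which act before it, differed by 0.04 and -0.08. Dgat1 and Dgat2, whose products add the last fatty acid, differed by 0.00 and 0.09, with Dgat2 read at 5.99 and 6.08.

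Among lipid droplet coat genes, only Plin4 was past 1.2-fold. Plin2, the coat protein of droplets in most cell types, read 10.16 and 10.17, and Plin3 read 9.17 and 9.19. Plin4, a perilipin of fat cells and muscle, read 6.59 without and 6.25 with homogenate, a difference of -0.34 or 1.26-fold lower, inside the range of its brightness set. Plin5, a perilipin of oxidative tissues, read 6.27 and 6.04, a difference of -0.23 that did not reach 1.2-fold. Plin1, the perilipin of fat cells, read 6.04 and 6.12. Cidea and Cidec, which enlarge droplets in fat cells, stayed under background, at 4.60 and 4.47 and at 4.84 and 5.08. The values of Plin4, Plin5 and Plin1 all lay under the 99th percentile of the receptor probesets, 6.80 and 6.65.

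Of the lipolytic enzymes, only Mgll was past 1.2-fold. Mgll (monoglyceride lipase, which completes the breakdown and also degrades the endocannabinoid 2-arachidonoylglycerol) read 7.14 without and 6.65 with homogenate, a difference of -0.50 or 1.41-fold lower, the largest negative difference among the 32 genes. The enzymes of the preceding steps were not lower: Pnpla2 (adipose triglyceride lipase) read 8.23 and 8.29, and Lipe (hormone-sensitive lipase) read 6.04 and 6.21. Abhd5, the activator of Pnpla2, read 9.08 and 9.25, a difference of 0.17. G0s2, the inhibitor of Pnpla2, read 7.05 and 6.75, a difference of -0.30 or 1.23-fold lower. With its second probeset, at 5.83 and 5.76, averaged in, G0s2 differed by -0.18, which is under 1.2-fold.

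**Figure D3:**
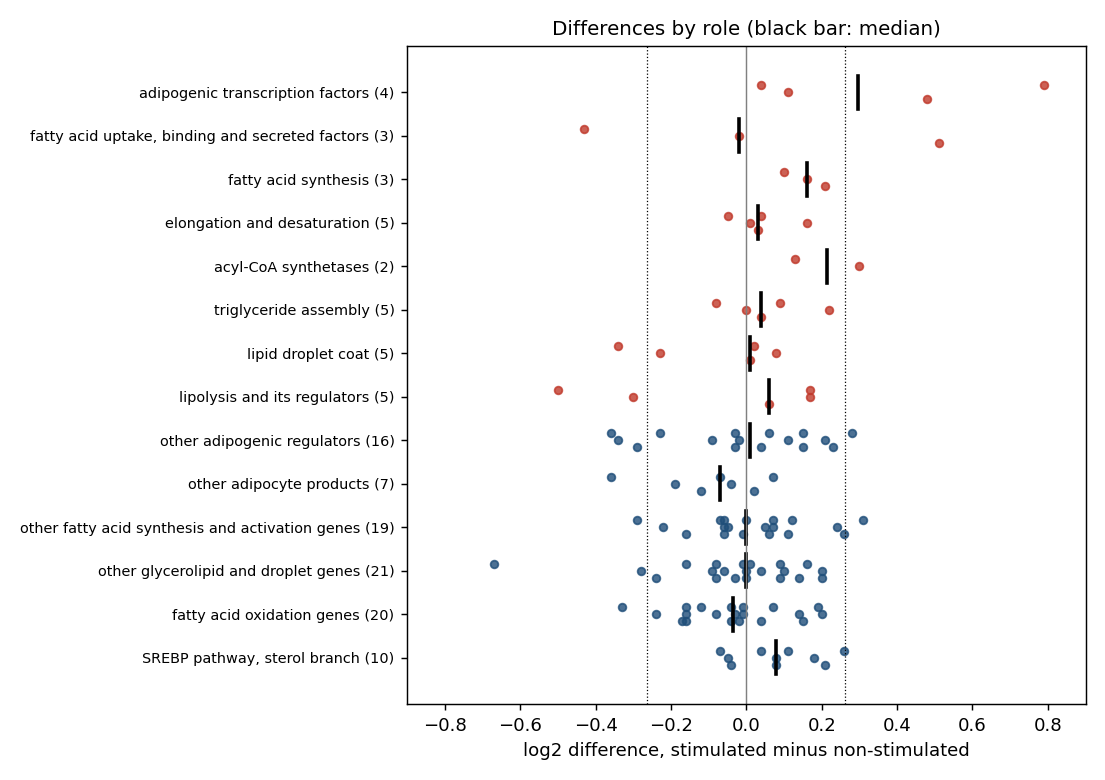
Log2 differences (stimulated minus non-stimulated) of measured genes by role, with the lipid genes in red and other genes of lipid metabolism in blue, the number of genes in parentheses, black bars at the medians and dotted lines at 1.2-fold. The transcription factors reach furthest to the right, with Cebpd at 0.79, and the lists of other genes have medians between -0.07 and 0.08.

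Another 117 genes of lipid metabolism were examined in 6 lists. Of the 93 measured, 2 were higher by 1.2-fold or more and 8 lower by as much, where 5.49% and 6.26% of all measured genes were, and their median was -0.01. Of the 8, Slc2a4 and Elovl7 passed only through a value under background, and their bounds fall short of 1.2-fold. The adipogenic regulators had a median of 0.01, with 1 of 16 higher, Stat5a at 1.21-fold, and 3 lower: Gata3 (1.28-fold), Ppargc1b (1.26-fold) and Ebf1 (1.23-fold). Gata3 (6.55 and 6.20) and Ppargc1b (5.95 and 5.61) lay under the 99th percentile of the receptor probesets, 6.80 and 6.65. The adipocyte products had a median of -0.07 over 7 genes, and the insulin-responsive glucose transporter gene Slc2a4 was at least 1.16-fold lower.

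Genes next to fatty acid synthesis had a median of 0.00 over 19. Acss2, which makes acetyl-CoA from acetate, read 6.98 and 7.29, 1.24-fold higher, and the elongase gene Elovl7 was at least 1.13-fold lower. The SREBP pathway of sterol synthesis, whose transcription factor gene Srebf2 is a relative of Srebf1, had a median of 0.08 over 10 genes, with none at 1.2-fold or more. Fatty acid oxidation genes had a median of -0.03 over 20. Only Pdk4, the kinase that holds back glucose oxidation, was past 1.2-fold there on the values as read, and it was at least 1.21-fold lower against the background level.

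In the list of glycerolipid and droplet genes, 2 of the 21 measured genes were past 1.2-fold, both lower, and the median was 0.00. Cav1 (caveolin, of the membrane pits called caveolae) read 9.65 without and 8.98 with homogenate, a difference of -0.67 or 1.59-fold lower. Cavin1, the coat protein of the same structure, read 9.58 and 9.29, a difference of -0.28 or 1.22-fold lower.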

How the data were processed

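RNA of 2 samples was amplified, biotin-labelled and read on the GeneChip Mouse Gene 2.0 ST array, per the labels' protocols. The deposited values are log2 values per probeset; Affymetrix Expression Console and RMA were used by the authors, per the submitters' processing notes, with versions and build not given in the sources used here. The RMA method subtracts background and gives the arrays a common distribution (their sorted values differed by at most 0.0757), so an overall shift is removed and differences are relative. Of 41345 probesets, 23521 were paired with 1 gene by the platform annotation and used, 1814 with several and 16010 with none. Gene identifiers of 23328 matched RefSeq (GRCm38.p6), which gave current symbols. Background was the 95th percentile of 1405 receptor probesets per array. A fold for a gene under background on 1 array is "at least", against that array's level. The number of arrays limits precision.

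The lipid genes, the role groups and the other lists were chosen with earlier results of these data known. Named in full are lipid genes past 1.2-fold and 12 main regulators and enzymes; of other lists, up to 4 past 1.2-fold, and the 2 highest markers per type. Others were named after their values were seen, as were the motifs and the promoters chosen. The code was run on simulated data with less spread than the arrays (Python 3.11.15, pandas 2.3.3). That run read back planted differences and counted at 2-fold only, so it did not test the smaller folds or the brightness ranges. Alternatives were other filters and background levels, averaged probesets, centring on the median or a lowess trend (fraction 0.3), and raised dim values.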

Additional observations from a re-analysis of the deposited data

How the results depend on the processing

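No paired analysis was possible because each condition has 1 array, and no replicate could be left out for the same reason. The median of the lipid genes stayed between 0.04 and 0.07 over 8 alternatives, and the counts past 1.2-fold stayed within 1.5 times. On the lower side that count was 3 in place of 4 with background at the 99th percentile, where Plin4 dropped out. It was also 3 with probesets averaged, where G0s2 did. Without a filter on dim genes, or with genes above background on at least 1 array, Fabp4 entered, which made 1 gene past 2-fold and 2 past 1.5-fold on the higher side. The median of the transcription factors was 0.13 without the filter and 0.48 with background at the 99th percentile, which left 26 lipid genes. That level also took the lipolysis median to -0.12, and the filter on at least 1 array took the uptake group's to 0.25. With probesets averaged, 1 gene in place of 2 lay below the range of its brightness set, and G0s2 was at -0.18. Lpl, at -0.33, came inside only because its averaged mean put it in a dimmer set with a wider range. Dim values raised to background put Fabp4 at 0.45. With background at the 99th percentile, Fabp4 was under it on both arrays and had no bound. A change counts here when it exceeds 0.1 on the log2 scale. With background at the 95th percentile, signal is the limit for 6 lipid genes, which have no measurable difference or only a bound. At the 99th, Cebpa, Dgat2, Lipe, Plin1, Plin4 and Plin5 were not measured either.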
